A study of Canis lupus familiaris with 6 samples.

Results

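Histone genes were followed in MDCK cells through the probe sets of an expression array whose platform symbols name a core or linker histone, that is, symbols of the H1, H2A, H2B, H3 and H4 series. The rule took 68 probe sets, and those with identical values on all 6 arrays were collapsed, which left 64 rows of the 32293 probe sets in the table. By their symbols, 54 rows belong to replication-dependent histone genes and 10 to variant histones. Between them the rows name 51 histone genes, 41 replication-dependent and 10 variant. Only 24 rows carry 1 symbol, and 40 carry several, up to 6. Many replication-dependent genes of 1 family are known as close copies of one another. Of the replication-dependent rows, 38 carry several symbols, so those rows report on a group of genes and not on one of them. In 20 rows the symbols come from more than 1 family (H2A with H4 in 17, H3 with H4 in 3), and the family cannot be told apart there.

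Histones package DNA into nucleosomes, in which DNA winds around a core of H2A, H2B, H3 and H4, while H1 binds the linker DNA between cores. Replication-dependent histone genes lie in clusters, have no introns and are transcribed mainly in S phase, when new DNA has to be packaged. Their mRNAs end in a stem-loop in place of a poly(A) tail, and the stem-loop binding protein SLBP governs their processing and decay. Variant histones such as H2AZ and the H3-3 proteins come from separate genes, usually polyadenylated, and are made outside S phase as well. In an epithelial culture the level of replication-dependent histone mRNA is known chiefly as a readout of how many cells are replicating DNA.

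MDCK is an epithelial line from dog kidney, and all arrays were hybridised with its total RNA. The groups were untreated cells (2 arrays), cells kept 30 days in TGFb at 5 ng/ml (2 arrays), cells given 5-AZA for 72 hours after TGFb (1 array) and cells grown for 30 days after TGFb was withdrawn (1 array). The 5-AZA and withdrawal cells had first had the same 30 days of TGFb at 5 ng/ml. TGFb is a growth factor that can turn epithelial cells mesenchymal. 5-AZA is the common short name of the DNA methylation inhibitor azacytidine or its deoxy form. The labels give neither which of these was used, nor its dose, nor whether TGFb was kept during it, and the 72 hours were read as the length of exposure. Separate cultures are not stated for the replicates, so p-values measure only how these samples spread, and that spread may be technical. The base of the logarithm is not stated. Values ran from 0.937 to 13.129 with array medians of 4.967 to 5.010, and were read as log2. Replicate arrays correlated at r = 0.984 (untreated) and 0.987 (TGFb). The E-cadherin gene CDH1, which defines epithelial cells, read 11.64 and 11.43 in untreated cells, 6.24 and 7.24 under TGFb, 6.98 after 5-AZA and 11.34 after withdrawal. Of 8 epithelial and kidney markers, CDH1, EPCAM, CLDN7 and OCLN were called lower under TGFb. KRT8, KRT18, CDH16 (−0.12 ± 0.20) and the kidney factor PAX8 (0.59 ± 0.15, limma adjusted p = 0.161) were not called, and PAX8 lay higher.

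Replication-dependent histone rows read lowest on the 5-AZA array. Their median log2 value was 6.53 and 6.97 on the untreated arrays, 7.18 and 6.84 on the TGFb arrays, 5.96 on the 5-AZA array and 7.16 on the withdrawal array. The 5-AZA array lay below the other 5 arrays, whose values overlapped between groups. The variant rows had medians of 5.84 and 5.85, then 5.63 and 5.69, then 5.65 and 5.94 in the same order, and the 5-AZA array lay between the TGFb arrays. The median of all 32293 rows stayed between 4.97 and 5.01. The signal of a probe set depends on its probes as well as on its transcript, so a higher signal in one row than in another does not rank their genes. In RNA from a whole culture, fewer cells in S phase and less histone mRNA per cell cannot be told apart.

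**Figure D1:**
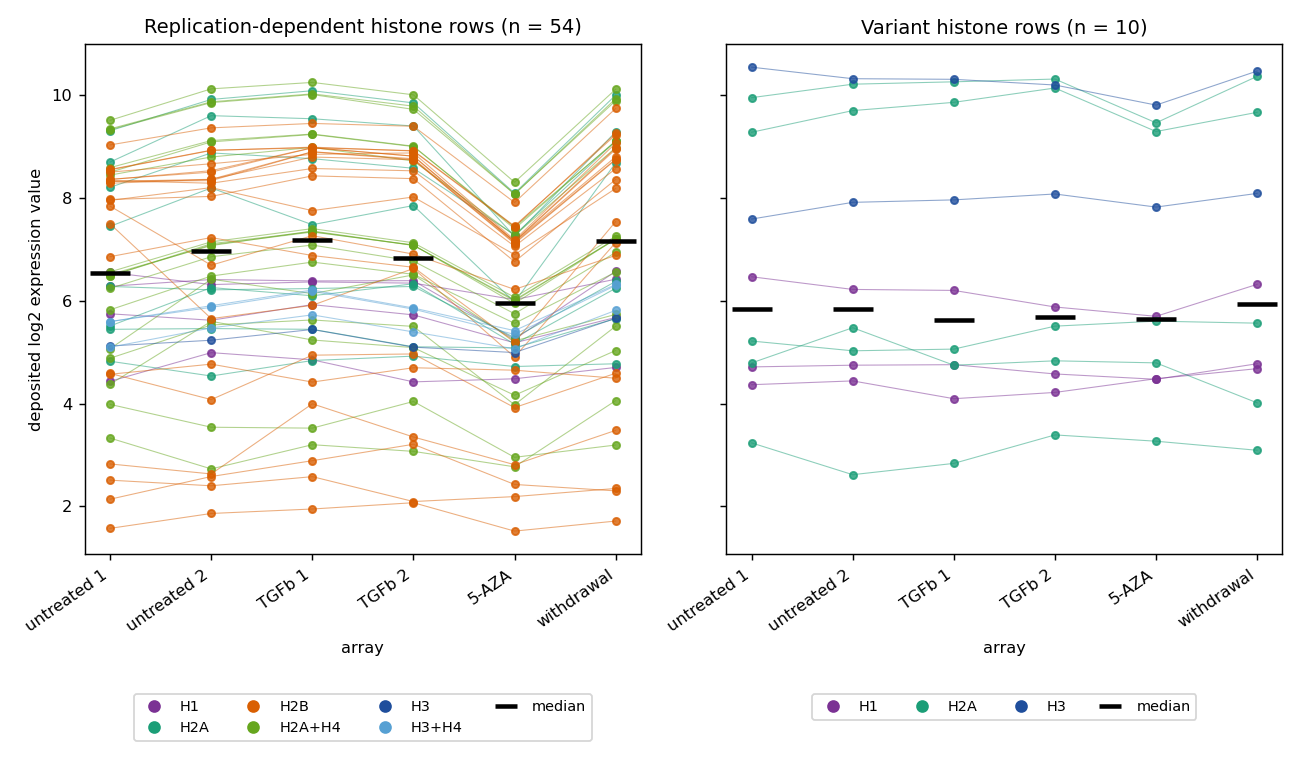
Deposited value, read as log2 (vertical axis), on the 6 arrays. Replication-dependent rows (left, n = 54) and variant rows (right, n = 10) are coloured by histone family. Thin lines join the values of a row and black bars are medians. The replication-dependent median is 5.96 on the 5-AZA array and 6.53 to 7.18 on the others, while the variant median stays between 5.63 and 5.94.

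The central comparison set the 5-AZA array against the 2 TGFb arrays, asking how cells given 5-AZA after TGFb differed from TGFb-treated cells. Whether TGFb was kept is not stated, so the difference may also hold time spent without it. Of the 54 replication-dependent rows, 53 had a log2 difference below 0, beside 51.9% of all rows, and the median was −1.20 beside −0.02 for all rows. In 51 rows (94.4%) the 5-AZA array lay below both TGFb arrays, as it did in 39.2% of all rows, and in none did it lie above both, against 35.7%. At least 2-fold lower values (a log2 difference of −1 or less) were found in 35 rows (64.8%) against 2.86% of all rows. The limma fit called 8 rows lower, at a Benjamini-Hochberg adjusted p under 0.05 over all 32293 rows, where 0.189% of all rows were called lower. None was called higher, beside 0.855% of all rows. An unadjusted p under 0.05 was reached by 38 rows, all lower, against 7.41% of all rows. Histone rows thus made up 8 of the 61 probe sets called lower in this comparison. The comparison has a single 5-AZA array, whose spread was assumed to equal that of the replicated groups. The calls did not hold when any 1 of the 4 untreated or TGFb arrays was left out, and calls over all rows fell as well. The difference itself does not use the untreated arrays, so only leaving out a TGFb array could change it. Without either TGFb array, 35 rows were still at least 2-fold lower.

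**Figure D2:**
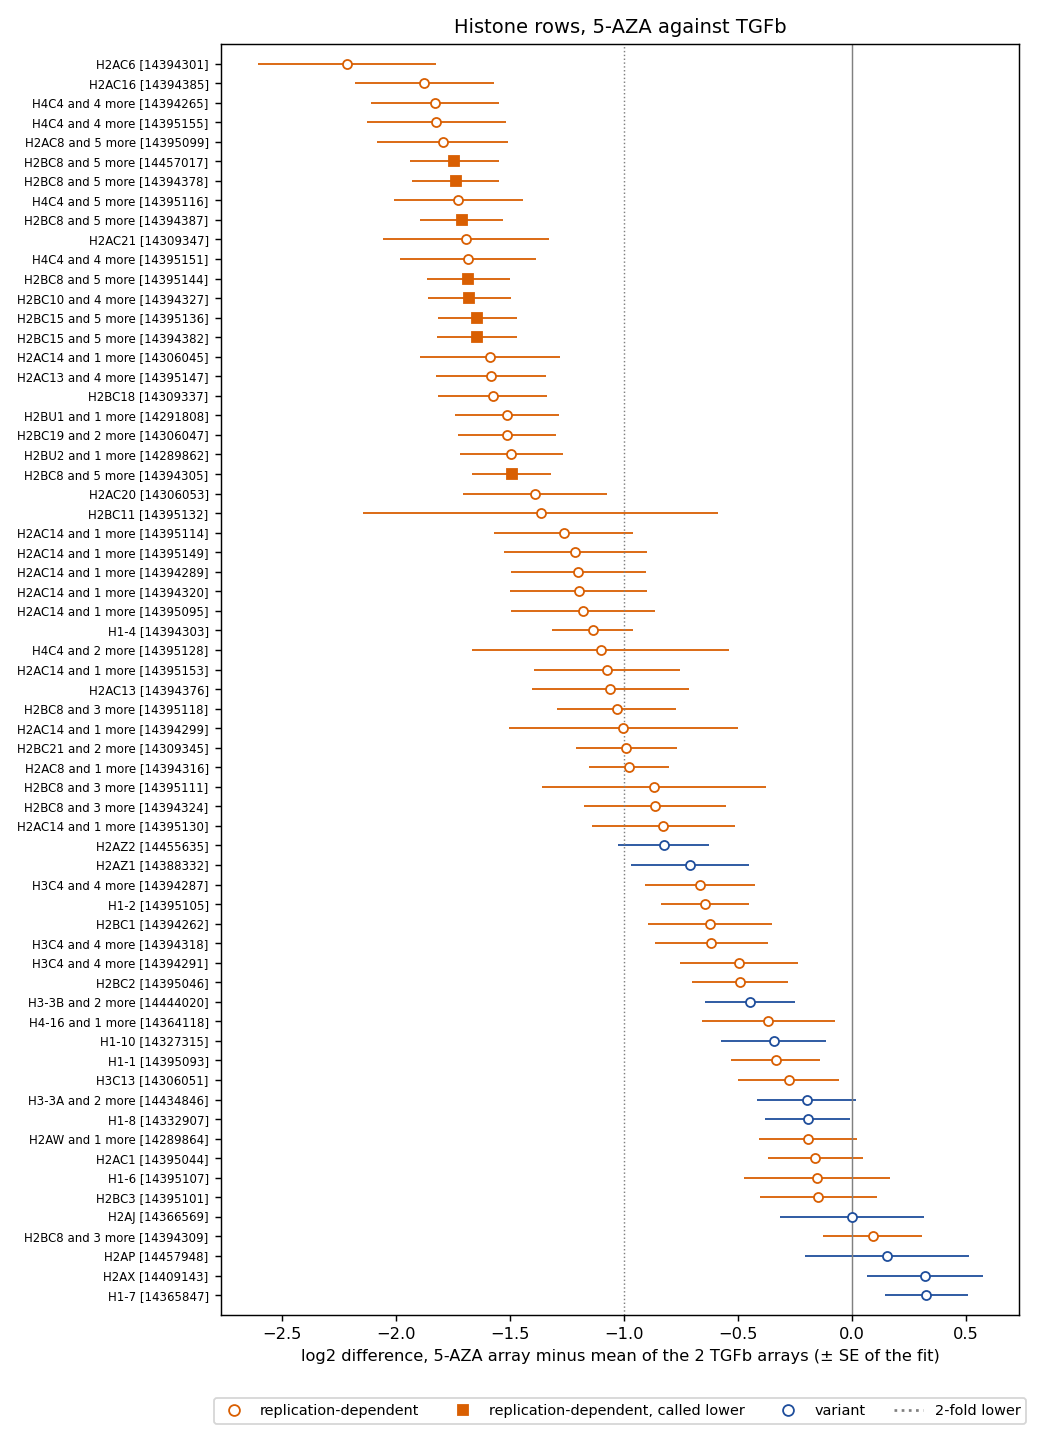
Log2 difference between the 5-AZA array and the mean of the 2 TGFb arrays (horizontal axis) for all 64 histone rows, with the standard error of the fit; each row shows its first symbol and probe set number. Filled squares are the 8 rows called lower, all of them H2B rows between −1.75 and −1.49; the variant rows (blue) lie between −0.83 and 0.33.

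The 8 called rows were all H2B rows with several symbols. H2B pairs with H2A to form the dimers that flank H3 and H4 within the core of the nucleosome. Probe set 14394387, annotated to H2BC8 and 5 other H2B genes, read 8.33 and 8.34 untreated, 8.90 and 8.75 under TGFb, 7.11 after 5-AZA and 8.75 after withdrawal. Only the 5-AZA array stood apart, more than 1 log2 unit below every other array. It fell by 1.71 ± 0.18 (SE) between TGFb and 5-AZA, with a limma adjusted p of 0.0325. Probe set 14457017, with the same 6 symbols, read 8.36 and 8.53, then 8.98 and 8.82, then 7.15 and 8.95, and fell by 1.75 ± 0.20 (adjusted p = 0.0361 in limma). These rows are not separate measurements. When rows within 0.2 log2 units of each other on every array were joined in chains, the 54 rows formed 40 patterns. The largest, of 7 rows, holds most of the called H2B rows, and also probe set 14395147, which names H2A and H4 genes. Rows of 1 chain can lie further apart: on untreated array 2, 14395147 read 8.80 and 14394387 read 8.34. Counted once per pattern, 22 of 40 patterns were at least 2-fold lower and 39 lay below 0, with a median of −1.05.

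Over the 21 H2B rows the median was −1.49, and 14 were at least 2-fold lower. The H2B row with a single symbol and the clearest shift was H2BC18. It read 6.86 and 7.23 untreated, 6.88 and 6.65 under TGFb, 5.19 after 5-AZA and 7.54 after withdrawal. The 5-AZA value was more than 1 log2 unit below the lowest of the others, and the difference from TGFb was −1.58 ± 0.24, which limma did not call (adjusted p = 0.0707). Both rows shared by H2BU1 and H2BU2, which lie away from the main clusters, differed by −1.51 ± 0.23 and −1.49 ± 0.22 (limma adjusted p = 0.0702 and 0.0705). H2BC11 was the least reproducible row of the family. It read 7.498 and 5.65 in the untreated pair, 5.91 and 6.63 under TGFb, 4.91 after 5-AZA and 7.13 after withdrawal. Its 5-AZA value was again the lowest of the 6, but untreated replicate 2 minus replicate 1 was already −1.84, and the difference from TGFb carried an error to match (−1.37 ± 0.78, limma adjusted p = 0.538).

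Several H2A rows had differences as low as those of the H2B rows but with larger errors, and none was called. H2AC6 had the lowest difference of all histone rows. It read 8.70 and 9.60 untreated, 9.54 and 9.40 under TGFb, 7.26 after 5-AZA and 9.29 after withdrawal, so the 5-AZA array was below all others although the untreated arrays disagreed. The difference from TGFb was −2.22 ± 0.39 (limma adjusted p = 0.0919). H2AC16 read 9.31 and 9.92, then 10.09 and 9.85, then 8.10 and 10.00 in the same order, a difference from TGFb of −1.88 ± 0.30 (adjusted p = 0.0787 in limma). All 8 rows with H2A symbols alone had the 5-AZA array below both TGFb arrays, 5 of them at least 2-fold lower, with a median of −1.22. Of the 17 rows naming both H2A and H4 genes, all 17 lay below both TGFb arrays and 15 were at least 2-fold lower, with a median of −1.21. In the H4C4 row 14395155, annotated to H4C4 and 4 H2A genes, values were 9.51 and 10.13 untreated, 10.25 and 10.01 under TGFb, 8.31 after 5-AZA and 10.12 after withdrawal (−1.82 ± 0.31 against TGFb, limma adjusted p = 0.0837).

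Most rows for H3 and for linker H1 moved less, and all had mean log2 values of 4.65 to 6.34. Rows of lower signal moved less in the class as a whole, and family and level were not told apart. H3 and H4 form the tetramer at the centre of the nucleosome. The 3 rows that name H3C4 with 4 other H3 and H4 genes had differences of −0.67, −0.62 and −0.49, all below both TGFb arrays and none 2-fold lower. H3C13, the only row of a single H3 gene, read 5.12 and 5.23, then 5.44 and 5.10, then 4.99 after 5-AZA and 5.66 after withdrawal, and its difference from TGFb (−0.28 ± 0.22, limma adjusted p = 0.668) was close to its error. Among the H1 genes, H1-4 read 6.28 and 6.41 untreated, 6.39 and 6.39 under TGFb, 5.25 after 5-AZA and 6.57 after withdrawal. The other 5 arrays lay between 6.28 and 6.57, with the 5-AZA array apart, and the difference from TGFb was −1.14 ± 0.18 (limma adjusted p = 0.0756). H1-2 differed by −0.64 ± 0.20, H1-1 by −0.33 ± 0.20 and H1-6, a linker histone known from testis, by −0.15 ± 0.32. Differences between families were not tested.

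Rows of higher signal had the larger differences. Of the 19 replication-dependent rows with a mean log2 value of at least 8, a limit chosen after the values were seen, all 19 were at least 2-fold lower against TGFb, with a median of −1.68. Of all 5195 probe sets at that level 2.77% were, with a median of −0.08. The 11 rows at or below the median level of the array had a median of −0.49, with 2 at least 2-fold lower. Across the 54 rows Spearman's rho between mean level and difference was −0.855, given as a description, since rows share genes and arrays. The detection limit of the array is unknown, and the rows at low signal include the testis-type genes H2AC1 (−0.16 ± 0.21), H2BC1 (−0.62 ± 0.27) and H1-6. The only replication-dependent row with a positive difference, probe set 14394309 (H2BC8 and 3 other H2B genes), read 4.57, 4.77, 4.42, 4.70, 4.65 and 4.49 from untreated to withdrawal, nearly level over the 6 arrays. Rows of the same 4 symbols differed by −1.03, −0.87 and −0.86, so the rows of this gene group ran from −1.03 to 0.09.

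**Figure D3:**
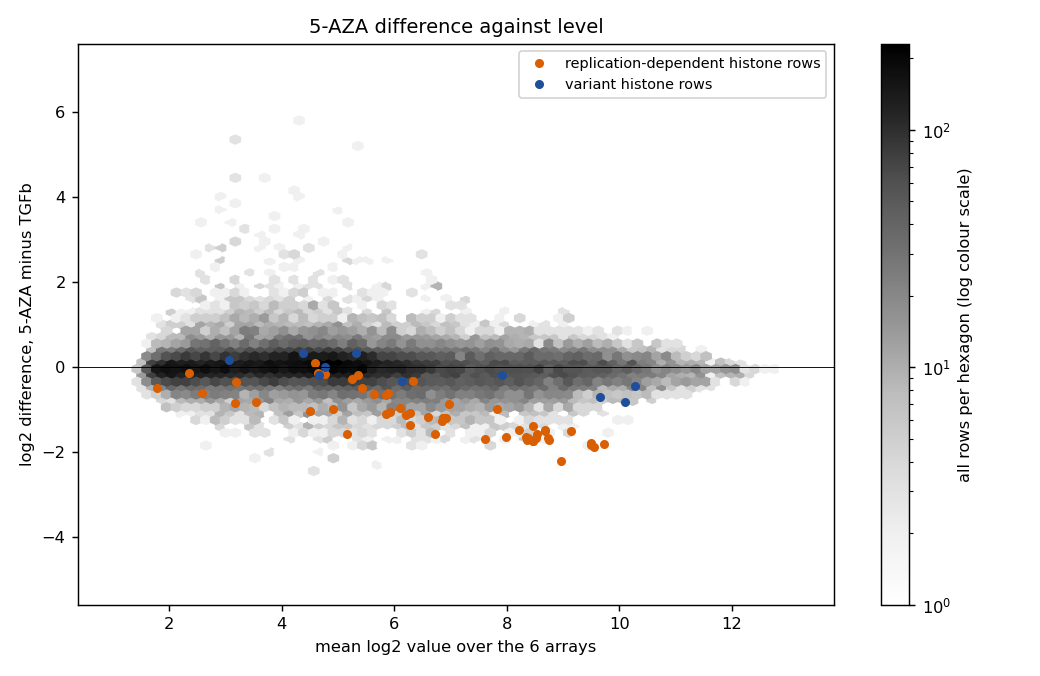
Log2 difference between the 5-AZA array and the mean of the TGFb arrays (vertical axis) against the mean log2 value over the 6 arrays (horizontal axis); grey hexagons count all 32293 probe sets on a log colour scale, orange points are the 54 replication-dependent rows and blue points the 10 variant rows. All 19 orange points at a level of 8 or more lie below −1, where 2.77% of all probe sets of that level lie.

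In RefSeq's dog assembly UU_Cfam_GSD_1.0, where all 51 genes were found under the same symbols, 30 of the genes lie on 1 chromosome, 7 on another and 3 on a further one. The 35 replication-dependent rows whose genes all lie in the first group had a median of −1.14 between TGFb and 5-AZA. The 6 rows of the next group, which holds H2AC20, H2AC21, H2BC18 and H3C13, had −1.45, and the 2 rows of the smallest, those of H2BU1 and H2BU2, had −1.50. The 5-AZA array lay below both TGFb arrays in 32 of the 35 rows and in all 8 rows of the 2 smaller groups, beside 39.2% of all rows.

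Variant histone rows did not pass the test in any comparison, and none differed 2-fold between 5-AZA and TGFb. Their median difference there was −0.20, with 6 rows below both TGFb arrays and 2 above both, beside 39.2% and 35.7% of all rows. An unadjusted p under 0.05 was reached by 2 rows, both lower, beside 7.41% of all rows. Those were the H2AZ genes, whose products replace H2A at promoters. H2AZ2 read 9.95 and 10.22 untreated, 10.26 and 10.32 under TGFb, 9.46 after 5-AZA and 10.37 after withdrawal, and its difference from TGFb was −0.83 ± 0.20 (limma adjusted p = 0.178). H2AZ1 read 9.28 and 9.70, then 9.86 and 10.14, then 9.30 and 9.67 in the same order, so its 5-AZA value lay below the TGFb pair but within the untreated pair (−0.71 ± 0.26 against TGFb, limma adjusted p = 0.334). H2AX, whose product is phosphorylated at DNA breaks, was one of the 2 rows above both TGFb arrays. It read 5.22 and 5.03, then 5.06 and 5.51, then 5.60 and 5.57, and its difference of 0.32 ± 0.25 was close to its error (adjusted p = 0.666 in limma).

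H3-3A and H3-3B encode the H3 variant laid down outside replication. The row led by H3-3B, also annotated to H3-3A and LOC612779, read 10.55 and 10.32, then 10.31 and 10.20, then 9.81 after 5-AZA and 10.47 after withdrawal. The 5-AZA array was again the lowest, by −0.45 ± 0.20 against TGFb (limma adjusted p = 0.421). The row led by H3-3A read 7.59 and 7.92, 7.96 and 8.08, 7.82 and 8.09, and differed by −0.20 ± 0.22. H1-10, a replication-independent linker histone, read 6.47 and 6.22 untreated, 6.20 and 5.88 under TGFb, 5.70 after 5-AZA and 6.32 after withdrawal (−0.34 ± 0.23 against TGFb). The germ-cell linker histones H1-7 and H1-8 differed by 0.33 ± 0.18 and −0.19 ± 0.19, H2AJ by 0.00 ± 0.32 and H2AP by 0.16 ± 0.36, all without a call. The variant and replication-dependent classes were not tested against each other.

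Against the untreated arrays, the same 5-AZA array asked how far histone levels stood from those of cells that had never seen TGFb. It is not independent of the comparison with TGFb, since both use 1 array. The limma fit called 11 replication-dependent rows lower, beside 1.41% of all rows, and none higher, beside 2.24%. The 5-AZA array lay below both untreated arrays in 47 of 54 rows (87%), against 40.6% of all rows. At least 2-fold lower values were found in 27 rows (50%), against 4.45% of all rows, and the median was −1.01 beside −0.03. The 11 rows included all 8 called against TGFb. The others were H2BC18 (−1.85 ± 0.24, limma adjusted p = 0.0276), H1-4 (−1.10 ± 0.18, adjusted p = 0.0472) and probe set 14306047, annotated to H2BC19 and 2 other H2B genes (−1.29 ± 0.22, adjusted p = 0.0492). H2BC18 and H1-4 were the only called rows with 1 symbol. Histone rows were 11 of 454 probe sets called lower in this comparison. None of the 11 calls held when any 1 of the untreated or TGFb arrays was left out, and calls over all rows fell as well. H1-4 was no longer called with an intensity trend, nor probe set 14306047 after quantile normalization. Of the variant rows, H1-10 (−0.65 ± 0.23), H3-3B (−0.63 ± 0.20) and H2AZ2 (−0.62 ± 0.20) lay lowest and were not called.

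**Figure D4:**
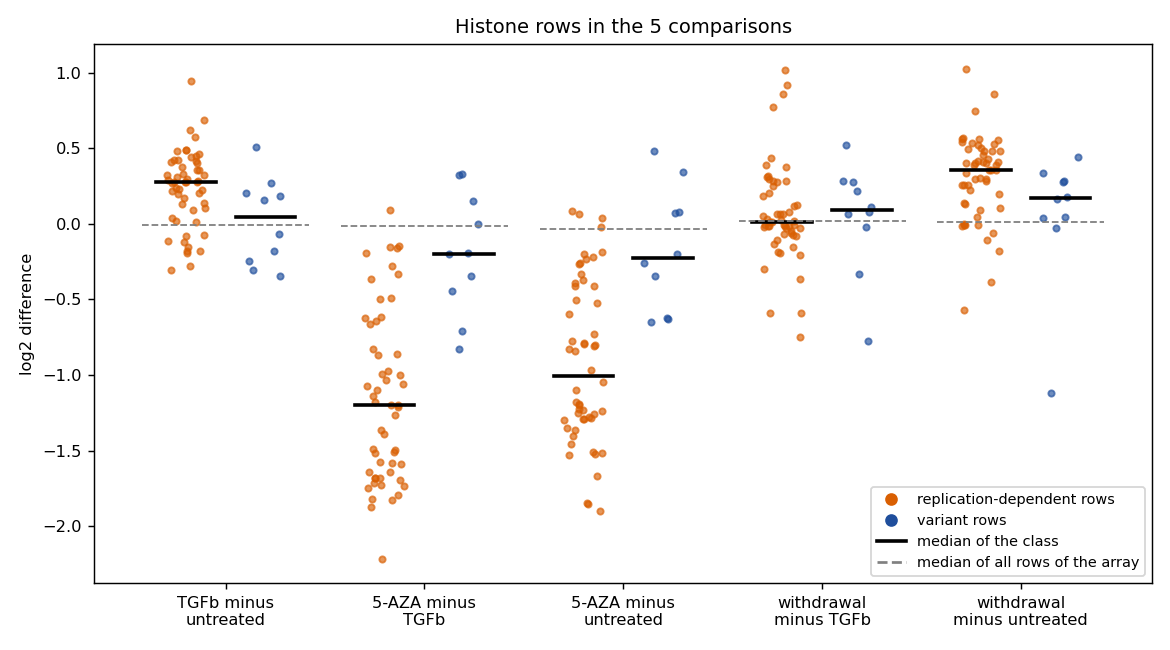
Log2 difference (vertical axis) of each histone row in the 5 comparisons (horizontal axis), orange for the 54 replication-dependent and blue for the 10 variant rows; black bars are class medians and grey dashes the median of all 32293 rows. The replication-dependent medians are 0.28, −1.20, −1.01, 0.01 and 0.36 from left to right, and the variant medians stay between −0.23 and 0.17.

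TGFb alone called no histone row against untreated cells in the limma fit, beside 0.691% of all rows called higher and 0.954% lower. The median of the replication-dependent rows was 0.28 beside −0.01 for all rows, and 44 of 54 lay above 0, beside 49.2% of all rows. Both TGFb arrays exceeded both untreated arrays in 16 rows (29.6%), against 23% of all rows, and in none did both lie below, against 23.1%. In 9 rows, all H2B and all higher, the unadjusted p was under 0.05, beside 7.6% of all rows, and the smallest adjusted p was 0.190. That row, probe set 14394324 (H2BC8 and 3 other H2B genes), read 2.82 and 2.63 untreated and 4.00 and 3.35 under TGFb (0.95 ± 0.25). Of the 16 rows above both untreated arrays 13 were H2B rows, 61.9% of the 21. Most of these H2B rows share symbols and are not separate measurements. Counted once per pattern, 30 of 40 replication-dependent patterns lay above 0, with a median of 0.22. Among variants H2AZ1 had the highest difference, 0.51 ± 0.21 (limma adjusted p = 0.364), and H2AJ the lowest, −0.34 ± 0.26.

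The untreated arrays themselves differed in these genes. Untreated replicate 2 exceeded replicate 1 in 42 of 54 replication-dependent rows, by a median of 0.32, and by 0.64 in H2A rows and 0.59 in rows naming H2A and H4. TGFb replicate 2 was the higher of its pair in 14 of 54 rows, with a median difference of −0.16. Over all probe sets these medians were 0.00 and −0.01. The median of the TGFb comparison was 0.07 without untreated replicate 1, 0.44 without untreated replicate 2, and 0.19 and 0.38 without TGFb replicates 1 and 2. What separated the untreated arrays was not tested.

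The withdrawal array asked whether histone levels moved in the 30 days after TGFb was removed. Against the TGFb arrays limma called no histone row, beside 0.369% of all rows higher and 0.471% lower, and at an unadjusted p under 0.05 there were 3 replication-dependent rows higher (6.49% of all rows) and 1 lower (7.05% of all rows). Their median was 0.01, with the sign turned (−0.03) after median centring. It was 0.12 without TGFb replicate 1 and −0.08 without TGFb replicate 2. The withdrawal array lay above both TGFb arrays in 18 rows and below both in 12, or 33.3% and 22.2%, against 39.9% and 35.1% of all rows. The largest difference was that of H2AC21, which read 7.45 and 8.20 untreated, 7.48 and 7.85 under TGFb, 5.98 after 5-AZA and 8.69 after withdrawal. Its withdrawal value was the highest of the 6 arrays, 1.02 ± 0.36 above TGFb (limma adjusted p = 0.328). Next came probe set 14364118 (0.92 ± 0.29), H2BC11 (0.86 ± 0.78) and H2BC18 (0.78 ± 0.24), none of them called. All 6 rows of the chromosome group that holds H2AC21 and H2BC18 read above both TGFb arrays, with a median of 0.41. Of the 35 rows of the largest group 8 read above both and 10 below both, with a median of −0.01.

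Withdrawal against untreated gave no call among histone rows, nor among all 32293 probe sets, of which limma gave 1392 higher (4.31%) and 1762 lower (5.46%) at an unadjusted p under 0.05. Of the replication-dependent rows 44 lay above 0, beside 51.9% of all rows, and 35 (64.8%) had the withdrawal array above both untreated arrays, against 37.3% of all rows. The median was 0.36, with 0.16 without untreated replicate 1 and 0.59 without untreated replicate 2, and 4 rows had an unadjusted p under 0.05, all higher. The highest was probe set 14364118, shared by H4-16 and H2AC14, at a low signal of 3.33 and 2.73 untreated, 3.20 and 3.07 under TGFb, 2.77 after 5-AZA and 4.06 after withdrawal (1.03 ± 0.29, limma adjusted p = 0.416). The lowest histone row was the variant H2AJ, known to accumulate in senescent human fibroblasts. It read 4.79 and 5.48 untreated, 4.75 and 4.83 under TGFb, 4.79 after 5-AZA and 4.01 after withdrawal, lowest on the withdrawal array (−1.12 ± 0.32 against untreated, adjusted p = 0.415 in limma).

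Genes that make, carry or use histones were read from lists of other genes. The first list held genes of DNA replication and S phase. All 26 measured lay below both TGFb arrays after 5-AZA, beside 39.2% of all rows. Of these, 11 were at least 2-fold lower, beside 2.86% of all rows, and the median was −0.90. CDC6, which loads the replicative helicase, read 10.09 and 10.53 untreated, 10.47 and 10.51 under TGFb, 8.33 after 5-AZA and 10.42 after withdrawal. The 5-AZA array stood alone, and CDC6 fell by 2.16 ± 0.24 against TGFb (limma adjusted p = 0.0363). The helicase subunits MCM7 (−1.65 ± 0.17, adjusted p = 0.0325 in limma) and MCM2 (−1.61 ± 0.20, adjusted p = 0.0459) also fell, and no other gene of that list was called. Over all rows 0.189% were called lower. Against untreated cells CDC6, MCM7 and the uracil glycosylase UNG (−1.73 ± 0.23, limma adjusted p = 0.0307) fell. PCNA, the sliding clamp of the replication fork, read 9.80 and 9.74, then 9.76 and 10.22, then 9.72 after 5-AZA and 9.94 after withdrawal, and differed from TGFb by only −0.27 ± 0.25 (adjusted p = 0.722 in limma). The withdrawal array exceeded both untreated arrays in 19 of the 26, beside 37.3% of all rows, with a median of 0.24 and no call.

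Of 26 histone chaperones and assembly factors, 22 lay below 0 between TGFb and 5-AZA, beside 51.9% of all rows, with a median of −0.40. Only 1 was called, lower, beside 0.189% of all rows. ASF1B, which hands new H3 and H4 to the assembly machinery, read 7.49 and 7.51 untreated, 7.73 and 7.63 under TGFb, 6.19 after 5-AZA and 7.86 after withdrawal. The 5-AZA array was more than 1 log2 unit below all others, and ASF1B fell by 1.49 ± 0.18 (limma adjusted p = 0.0402). CHAF1A, the large subunit of the complex that deposits H3 and H4 at the fork, differed by −1.24 ± 0.19 from TGFb (limma adjusted p = 0.0702) and fell by 1.25 ± 0.19 against untreated (adjusted p = 0.0370), where ASF1B fell too.

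None of 20 measured genes of histone mRNA transcription and processing was called in limma between TGFb and 5-AZA. Over all rows 0.189% were called lower and 0.855% higher. Of the 20, 18 lay below 0, beside 51.9% of all rows, with a median of −0.32. In 5 the unadjusted limma p was under 0.05, all lower, beside 7.41% of all rows. SLBP read 8.09 and 7.34 untreated, 8.02 and 7.89 under TGFb, 7.33 after 5-AZA and 8.39 after withdrawal, so its 5-AZA value matched the lower untreated array (−0.63 ± 0.34 against TGFb, limma adjusted p = 0.515). NPAT, the coactivator of histone gene transcription in S phase, read 8.01 and 7.93, 7.71 and 7.98, 7.999 and 8.10, with no array apart (0.15 ± 0.20, adjusted p = 0.821 in limma). None of 20 histone-modifying enzymes was called there either, with 2 higher and 2 lower at an unadjusted p under 0.05, where 6.28% and 7.41% of all rows lay, and a median of −0.15. None of the genes on these 4 lists was called between TGFb and untreated or in either withdrawal comparison. Over all rows, at most 0.691% were called higher and 0.954% lower in these comparisons.

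Histone variants whose symbols lie outside the rule were measured for 3 genes. MACROH2A1, a repressive H2A variant, read 8.59 and 8.51 untreated, 7.77 and 7.96 under TGFb, 7.58 after 5-AZA and 8.52 after withdrawal. Its TGFb and 5-AZA values lay below the untreated and withdrawal values with no overlap, but neither TGFb (−0.69 ± 0.15, limma adjusted p = 0.133) nor 5-AZA against untreated (−0.97 ± 0.19, adjusted p = 0.068) passed. CENPA, the H3 of centromeres, differed by −0.82 ± 0.43 between TGFb and 5-AZA (limma adjusted p = 0.495), and MACROH2A2 by 0.26 ± 0.35.

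**Figure D5:**
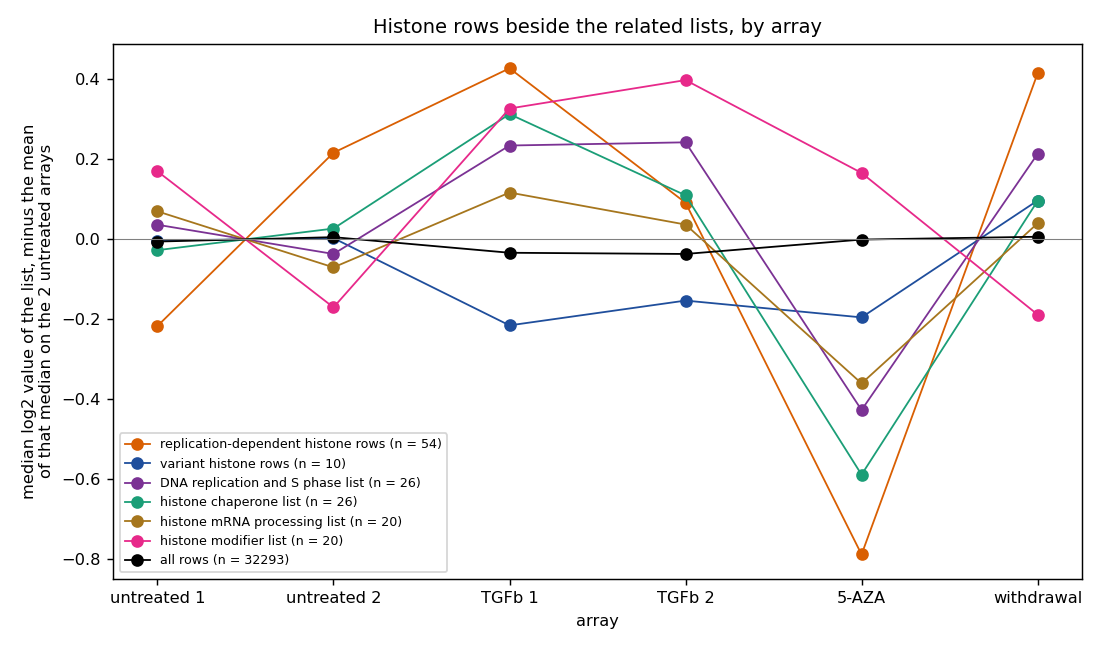
Median log2 value of each list on each array, minus the mean of that median on the 2 untreated arrays (vertical axis), for the histone classes, the 4 related lists and all 32293 rows (key). On the 5-AZA array the replication-dependent histone rows have the lowest point, followed by the chaperone and the S phase lists, while the variant rows and all rows stay near their TGFb values. These points are shifts of a list's median level. Taken gene by gene, the median difference of 5-AZA from untreated was −0.63 for the S phase list and −0.25 for the chaperone list, the reverse order.

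Markers of other cells were read on the same arrays. PECAM1, an endothelial and blood cell adhesion molecule, read 3.24 to 3.62 on the other 5 arrays and 6.57 after 5-AZA (3.32 ± 0.20 against TGFb, limma adjusted p = 0.00602), and the B cell gene CD79A read 3.44 to 3.77 and 5.04 (1.30 ± 0.22 against untreated, adjusted p = 0.0485). The remaining markers, 3 of 4 leukocyte, 3 of 4 endothelial and all 3 neuronal, were not called in any comparison. On the 5-AZA array PTPRC read 3.05, CD3E 2.56 and CD14 5.03, and CDH5 read 4.74, KDR 3.84 and VWF 4.27. On the other 5 arrays PTPRC read 2.83 to 2.97, CD3E 2.502 to 3.008 and CD14 4.76 to 5.10, while CDH5 read 4.46 to 4.89, KDR 3.16 to 3.85 and VWF 4.18 to 4.44. Apart from PECAM1, CD79A and PTPRC, the leukocyte and endothelial genes stayed within the range of the other arrays. Of the neuronal genes, MAP2 read 5.87 after 5-AZA and 6.09 to 7.54 on the others, so it lay below their range. SYP (5.28 after 5-AZA) and RBFOX3 (4.17) stayed within it. The median of the leukocyte list was 4.04 on the 5-AZA array and 3.20 to 3.39 on the others, and that of the endothelial list 4.51 and 3.75 to 4.11. Their part in the histone values was not tested.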

How the data were processed

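RNA of 6 MDCK samples was measured on Affymetrix arrays. The authors deposited 1 log2 value per probe set and array, made with Affymetrix Expression Console 1.2, per the submitters' processing notes. Summary method, background correction, log base and labelling primer: not given in the sources used here. Precision is limited by the number of arrays. Symbols came from the platform annotation (16545 probe sets with 1 symbol, 370 with several, 15378 with none). Rows with several symbols were kept.

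Group means were fitted to all 32293 rows and 6 arrays with limma 3.58.1 in R 4.3.3 (eBayes, no trend, not robust), with 2 residual and 3.1 prior degrees of freedom. Benjamini-Hochberg adjusted p-values under 0.05 were called. Errors after ± are standard errors of the fit. The procedure was tested on simulated data. The rows and related lists were chosen with earlier results of these data known. Named rows were all variants, all called rows, the 6 highest and lowest replication-dependent rows per comparison, called list members and anchors such as SLBP, NPAT, PCNA and CENPA. Other rows were named after their values were seen. Sequences and promoter motifs were not analysed here.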

Additional observations from a re-analysis of the deposited data

How the results depend on the processing

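Between TGFb and 5-AZA, 8 to 9 histone rows were called lower with an intensity trend, quantile normalization, median centring, robust moderation, the signal filter (16147 brighter rows kept), identical rows counted once, and identical histone rows not collapsed. The count was 25 where only rows with a symbol were tested, a setting that called 727 of all 16915 such rows either way. The main fit called 337 of 32293. Among the histone rows with 1 symbol the count was 0. Against untreated it was 23 with the signal filter, 26 with only symbol rows tested and 2 among rows with 1 symbol. Fewer rows enter the adjustment in the first 2 of these, and fewer histone rows in the last. Over all rows, the first 2 called 1220 of 16147 and 1783 of 16915 either way, beside 1178 of 32293 in the main fit. With an untreated or TGFb array left out, none of the histone calls of the main fit held in either 5-AZA comparison, and fewer rows were called over the whole table. The replication-dependent median against TGFb was −1.49 with the signal filter and −0.85 over rows with 1 symbol, and against untreated −0.62 over rows with 1 symbol. Rows at least 2-fold lower were then 8 of 16 and 7 of 16. With arrays left out these medians ran from −1.34 to −1.14 and from −1.15 to −0.96. A median can move only when an array of the groups it compares is left out. The variant medians under median centring were 0.084 (TGFb against untreated), −0.23 (5-AZA against TGFb) and 0.052 (withdrawal against TGFb). With the signal filter they were 0.18, −0.40 and 0.15, with −0.41 for 5-AZA and 0.23 for withdrawal against untreated. Over rows with 1 symbol the variant median of 5-AZA against TGFb was −0.10. With arrays left out the variant medians ran from −0.076 to 0.039 for TGFb against untreated, −0.21 to −0.15 for 5-AZA against TGFb, −0.341 to 0.008 for 5-AZA against untreated and 0.056 to 0.122 for withdrawal against TGFb. A replicate block for TGFb against untreated left the replication-dependent median at 0.28 and 0 histone rows called. Deviations of arrays with the same number correlated at 0.099 over 2 pairs, so the numbers were not shown to pair the arrays, and over all rows 712 were called in place of 531. The 2-fold counts and the level limit of 8 were added after seeing the data. The signal filter and the restriction to rows with 1 symbol left the difference of each row unchanged and only dropped rows from the medians. The causes of the other changes were not tested. The promoter motif search was not run, as no promoter sequences were used here.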
